A study of Mus musculus with 6 samples.

Results

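The genes described here encode the proteins of the mitochondrial ribosome, taken as every row of the deposited table whose symbol starts with Mrpl or Mrps followed by a digit and whose category includes protein coding. There are 78 such genes among the 50599 in the table. RNA was sequenced from the mouse macrophage line RAW264.7 after retroviral transfer of ∆Raf-1:ER, an oncoprotein held inactive until 4-hydroxytamoxifen (4-OHT) binds. All cells, treated or not, had gone through 7 days of selection in hygromycin B (70 µg/mL) and were without serum for the last 24 hours. The 4-OHT group received 100 nM 4-OHT and the vehicle group received ethanol, with 3 libraries in each, lettered A, B and C, taken on day 3 after induction. The series calls the 4-OHT cells senescent; the samples used here include no cells lacking ∆Raf-1:ER that received 4-OHT, and the drug and the oncoprotein cannot be told apart.

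The mitochondrial ribosome translates the few messenger RNAs of the mitochondrial genome, which encode core subunits of the respiratory chain and of ATP synthase. Its ribosomal RNAs are made in the organelle, whereas all of its proteins are encoded in the nucleus, translated in the cytosol and imported. A large subunit joins amino acids and a small subunit decodes. Some of its proteins descend from those of bacterial ribosomes and others occur only in mitochondria.

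Libraries held 11629150 to 15943722 recovered reads. Deposited values are reads per gene scaled by 1 size factor per library, called normalized counts below. The defining macrophage genes Csf1r, Cd68, Lyz2 and Adgre1 were present in both groups, and the list of macrophage markers summed to 59986 to 76680 normalized counts in 4-OHT libraries and to 93717 to 97580 in vehicle libraries. Most of that sum was Lyz2 and Csf1r, and of the 7 macrophage markers tested 4 were higher (Itgam at 2.21, Mrc1, Fcgr1 and Cd68) and 3 lower (Lyz2, Csf1r and Adgre1), or 1 higher and 3 lower under total-count scaling. Marker lists of other cell types summed to at most 70.2 normalized counts in any 4-OHT library and at most 5.77 in any vehicle library, with Krt8 and S100a9 at 0 in all 6. The neutrophil list, made up almost wholly of S100a8, summed to 24.9 to 70.2 with 4-OHT and 0 to 2.16 with vehicle. The epithelial and endothelial list, mostly Cdh5, summed to 29.5 to 47.0 with 4-OHT and 0.99 to 5.77 with vehicle, and both S100a8 and Cdh5 were called higher. The part of these differences in the results was not tested. In bulk RNA, fewer cells of a type and less RNA per cell cannot be told apart.

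Messenger RNAs of the mitochondrial ribosome were lower with 4-OHT in both subunits, by modest amounts. Of the 78 genes, 77 had enough reads to be tested and 61 of these were lower at an adjusted p under 0.05 (limma on the log2 of normalized count plus 1, Benjamini-Hochberg over all 11828 genes tested), against 32.5% of all tested genes. The other 16 were not called. By limma 0 were higher, against 33% of all tested genes, also 0 at an unadjusted p under 0.05, 0 by edgeR and 0 by DESeq2. On recovered reads edgeR called 58 lower, against 31.6% of all genes it tested, and DESeq2 46, against 19.2%. The median log2 fold change was -0.32, where that of all tested genes was -0.02, and 73 of the 77 lay below 0. In 62 genes the 3 values of the 4-OHT libraries all lay below the 3 of the vehicle libraries, as in 35.7% of all tested genes. The changes were small, from -0.83 to 0.05, and 0 of the 61 reached a 2-fold fall, which 2.87% of tested genes did (called, log2 fold change of -1 or lower). Under total-count scaling, described below, Mrpl36, Mrps35, Mrps27 and Mrps28 passed that fold, at -1.14, -1.14, -1.05 and -1.03.

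Summed over the 78 genes, the normalized counts were 29334, 28438 and 28929 in the 4-OHT libraries, against 36394, 36569 and 36078 in the vehicle libraries (A, B and C each). The 4-OHT sum was thus 79.5% of the vehicle sum. As a share of each library these genes took 0.213%, 0.197% and 0.199% in 4-OHT libraries, against 0.321%, 0.313% and 0.314% in vehicle libraries. All 4-OHT libraries lay below all vehicle libraries on both scales. The ratio of the shares was 64.3%, the deposited totals being larger in the 4-OHT libraries.

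**Figure D1:**
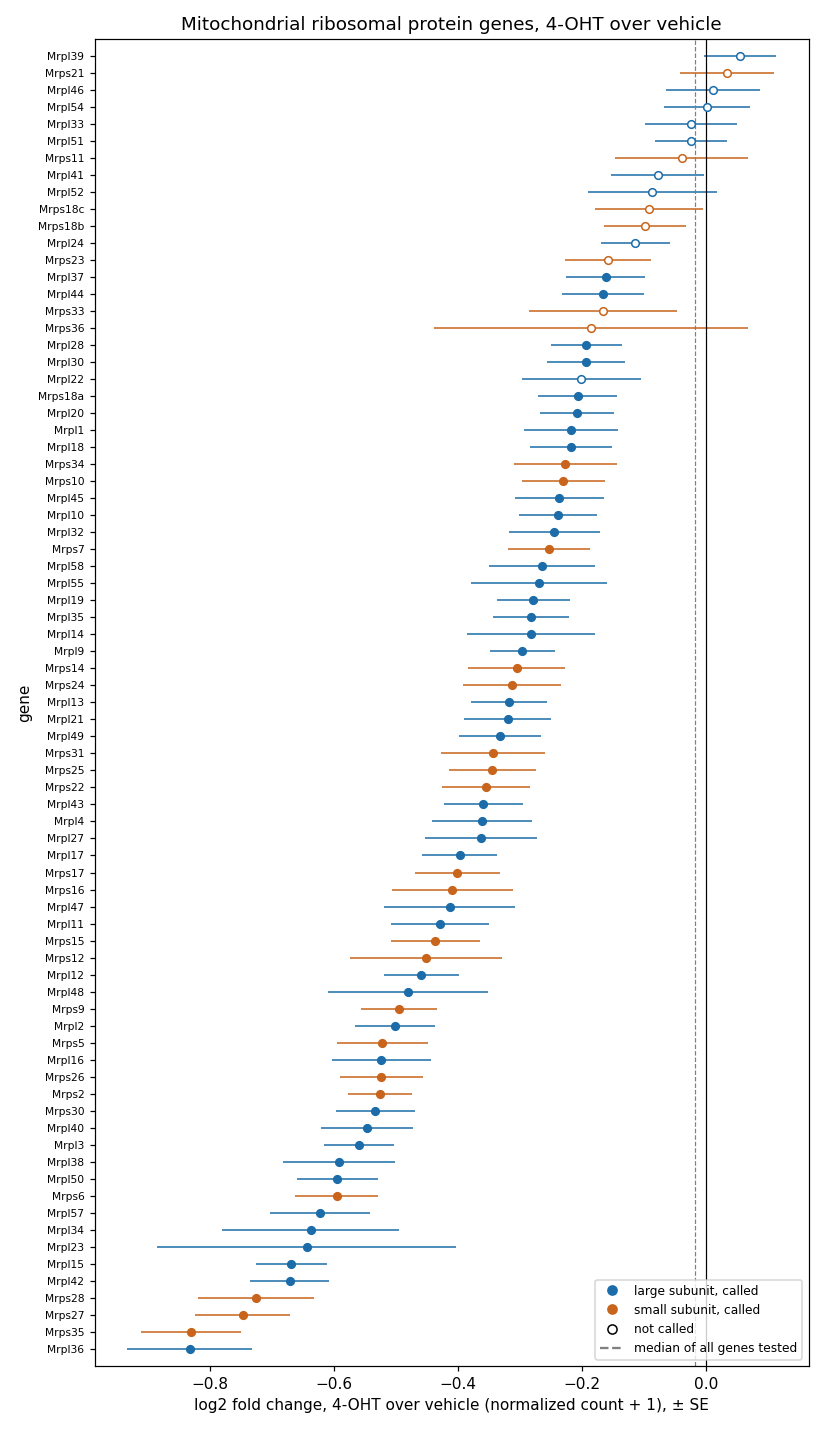
Log2 fold change of 4-OHT over vehicle for the 77 tested genes, ordered by value, with bars of 1 standard error from limma; blue marks the large subunit, orange the small subunit, and open circles genes not called. The values run from 0.05 (Mrpl39) to -0.83 (Mrpl36), and nearly all lie left of the dashed median of all genes tested, -0.02.

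Scaling moved the size of the median fall but not its direction. When each library was divided by its total, the median of all tested genes moved to -0.32 and that of the mitochondrial ribosomal proteins to -0.62, so the distance between them was -0.30 under both scalings. Under total-count scaling 76 of 77 were lower, against 55.4% of all tested genes, and 0 were higher, against 19.1%. The genes at or just above 0 under the deposited size factors therefore stood below 0 under total-count scaling, Mrpl39 at -0.25 and Mrps21 at -0.27.

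**Figure D2:**
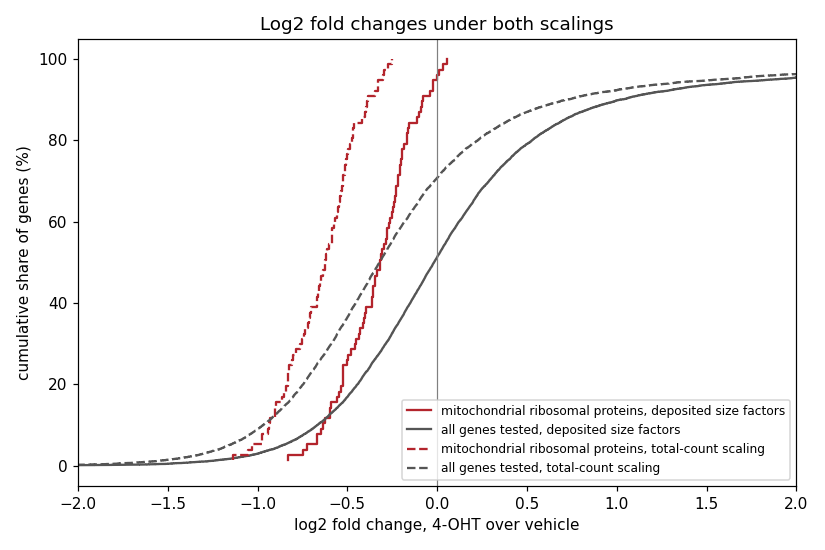
Cumulative share of genes (vertical axis, percent) by log2 fold change of 4-OHT over vehicle, for the mitochondrial ribosomal proteins (red) and all genes tested (grey), under the deposited size factors (solid) and total-count scaling (dashed); the axis is drawn from -2 to 2. Total-count scaling shifts both curves left by a like amount, and the medians of the red curves are -0.32 and -0.62.

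Promoters of several of these genes are shown because the genes moved together and because the regions include the largest fall, a pair of neighbours that fell together, a pair that moved in opposite directions, and genes that were not called. The sequences are RefSeq promoters of build GRCm38.p6, from 250 bases before to 50 after the start, and 69 of the 78 genes had one. Capitals mark 4 motifs searched on both strands, CCGGAAG of ETS factors, GCGCA, any base and GCGC of nuclear respiratory factor 1 (NRF1), AAGATGGCG of YY1 and the E-box CACGTG, which MYC can bind.
Mrpl36, chr13:73330759-73331058, plus strand: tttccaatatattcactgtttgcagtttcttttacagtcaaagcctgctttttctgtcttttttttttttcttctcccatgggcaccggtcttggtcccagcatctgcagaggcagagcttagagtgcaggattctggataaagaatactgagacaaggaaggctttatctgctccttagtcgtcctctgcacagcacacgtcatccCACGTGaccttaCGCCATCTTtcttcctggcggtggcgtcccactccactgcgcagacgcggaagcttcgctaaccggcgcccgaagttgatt
Mrps27, chr13:99344536-99344835, plus strand: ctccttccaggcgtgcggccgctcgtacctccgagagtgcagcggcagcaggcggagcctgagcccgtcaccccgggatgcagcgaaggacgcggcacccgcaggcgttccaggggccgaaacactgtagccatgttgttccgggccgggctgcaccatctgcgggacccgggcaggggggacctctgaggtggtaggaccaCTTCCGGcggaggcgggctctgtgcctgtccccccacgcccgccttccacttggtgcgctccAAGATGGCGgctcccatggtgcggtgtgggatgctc
Mrpl50, chr4:49521034-49521333, minus strand: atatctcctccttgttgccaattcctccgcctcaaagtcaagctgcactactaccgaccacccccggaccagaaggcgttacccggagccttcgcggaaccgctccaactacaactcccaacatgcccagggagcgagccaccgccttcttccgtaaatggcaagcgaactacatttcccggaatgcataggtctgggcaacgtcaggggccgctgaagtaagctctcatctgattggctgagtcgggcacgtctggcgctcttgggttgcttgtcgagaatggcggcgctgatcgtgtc
Mrps21, chr3:95871465-95871764, minus strand: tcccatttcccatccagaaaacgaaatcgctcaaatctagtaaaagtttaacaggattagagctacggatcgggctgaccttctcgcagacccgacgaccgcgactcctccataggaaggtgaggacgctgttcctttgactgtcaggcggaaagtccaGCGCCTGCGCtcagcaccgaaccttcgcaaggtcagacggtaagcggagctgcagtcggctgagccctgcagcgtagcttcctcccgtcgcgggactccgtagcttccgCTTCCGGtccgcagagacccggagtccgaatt
Mrpl39, chr16:84735195-84735494, minus strand: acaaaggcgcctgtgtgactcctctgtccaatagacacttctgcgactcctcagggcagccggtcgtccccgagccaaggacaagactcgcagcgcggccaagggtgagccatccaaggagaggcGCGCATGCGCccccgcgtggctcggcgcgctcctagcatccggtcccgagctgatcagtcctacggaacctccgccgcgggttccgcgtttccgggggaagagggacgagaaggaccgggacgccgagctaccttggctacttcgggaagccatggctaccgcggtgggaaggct

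Mrpl36 held an E-box and a YY1 motif on the reverse strand, and Mrps27 held an ETS motif on the reverse strand and a YY1 motif. Mrps21 and Mrpl39, which were not called, each held an NRF1 motif, and Mrps21 also an ETS motif. In Mrps21 both motifs were on the reverse strand. None of the 4 motifs was found in the 300 bases at Mrpl50. Over all 75 promoters listed for the 69 genes, 34.7% held the ETS motif, 17.3% the NRF1 motif and 10.7% the YY1 motif. Among 11150 promoters of the other tested genes the shares were 18.4%, 10.4% and 3.22%, and among all 32851 promoters 8.86%, 4.60% and 1.40%. The E-box was in 9.33% of these promoters, 10.3% of those of other tested genes and 7.15% of all. The promoter elements GGGCGG (Sp1), CCAAT and TATAAA, searched in the same way and not marked, were in 52%, 40% and 6.67% of these promoters, against 62.3%, 38.2% and 6.91% of those of other tested genes and 35.7%, 37.4% and 13.6% of all. ETS and YY1 letters overlapped each other in 0 promoters. The median log2 fold change was -0.32 in 25 tested genes with an ETS motif and -0.31 in 43 without. It was -0.28 in 13 with an NRF1 motif and -0.32 in 55 without, -0.30 in 8 with a YY1 motif and -0.31 in 60 without, and -0.21 in 5 with an E-box and -0.31 in 63 without. For GGGCGG it was -0.34 in 34 with and -0.27 in 34 without, for CCAAT -0.37 in 26 with and -0.29 in 42 without, and for TATAAA -0.40 in 5 with and -0.30 in 63 without. Called lower were 16 of the 25 genes with an ETS motif and 37 of the 43 without. For NRF1 these counts were 11 of 13 and 42 of 55, and for YY1 7 of 8 and 46 of 60. For the E-box they were 4 of 5 and 49 of 63, and for GGGCGG 27 of 34 and 26 of 34. For CCAAT they were 22 of 26 and 31 of 42, and for TATAAA 4 of 5 and 49 of 63. Of all tested genes 32.5% were called lower. None of these differences was tested. These are letter matches and show no binding.

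Transcripts of 3 factors known to act on such promoters were not called under the deposited size factors and were called lower under total-count scaling. Nrf1 averaged 305 ± 33.4 normalized counts with 4-OHT and 297 ± 18.1 with vehicle (SD, n = 3 each), Gabpa, an ETS factor, 1114 ± 16.5 with 4-OHT and 1104 ± 31.0 with vehicle, and Yy1 1258 ± 128 with 4-OHT and 1205 ± 63.2 with vehicle. Their log2 changes were 0.03, 0.01 and 0.06, or -0.27, -0.29 and -0.25 under total-count scaling. Of 9 tested regulators of mitochondrial gene expression, 4 were lower and 5 not called, where 32.5% of all tested genes were lower. The median log2 fold change of the 9 was 0.01, beside -0.02 for all tested genes. Under total-count scaling all 9 were lower, where 55.4% of all tested genes were. The 4 lower genes included Myc at -0.59, and Pprc1 and Ppargc1b, coactivators of the PGC-1 family, at -0.38 and -0.47. The other was Tfam, which packages mitochondrial DNA and starts its transcription, at -0.48. Whether the list differed from all tested genes was not tested.

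The falls were of like size in both subunits. Of 50 tested large subunit genes 41 were lower and 9 not called, with a median log2 fold change of -0.29. Of 27 small subunit genes 20 were lower and 7 not called, with a median of -0.34. Of all tested genes 32.5% were lower, with a median of -0.02. The 4-OHT sum was 80.6% of the vehicle sum in the large subunit and 77.1% in the small subunit. Classes of descent were assigned from general knowledge. Of 46 genes classed as having a bacterial homologue 40 were lower (median -0.32). Of 31 tested genes classed as specific to mitochondria 21 were lower (median -0.27). The latter class includes Mrps18a and Mrps18b, although they are homologues of bacterial S18, and also Mrpl58 and Mrps36. Differences between these classes were not tested. The log2 fold changes of the 77 genes had an SD of 0.21, with a median standard error of 0.07 per gene.

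Among large subunit proteins, Mrpl36, the counterpart of bacterial L36, a small zinc-binding protein (ENSMUSG00000021607.8, chromosome 13, 73331009 to 73332175, GRCm38/mm10), had the most negative change. It had 147, 168 and 188 normalized counts in 4-OHT libraries A, B and C, against 304, 310 and 282 in vehicle libraries A, B and C. All 4-OHT values lay well below the vehicle values, at 56.2% of their mean, a log2 fold change of -0.83 ± 0.10 (SE, limma adjusted p = 2.28e-05). Mrpl42, which occurs only in mitochondria, had 326, 304 and 311 normalized counts with 4-OHT, against 496, 500 and 502 with vehicle. The vehicle values were almost equal, and the log2 fold change was -0.67 ± 0.06. Mrpl15, the counterpart of bacterial L15, had 530, 526 and 551 normalized counts with 4-OHT, against 868, 810 and 881 with vehicle, a change of -0.67 ± 0.06.

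Mrpl34, the counterpart of bacterial L34, had 151, 128 and 111 normalized counts with 4-OHT, against 241, 197 and 172 with vehicle. The spread within each group was wider here, but the groups did not overlap (log2 fold change -0.64 ± 0.14, limma adjusted p = 0.00217). Mrpl57, found only in mitochondria, had 200, 208 and 195 normalized counts with 4-OHT, against 329, 292 and 310 with vehicle, and changed by -0.62 ± 0.08. Mrpl23, the counterpart of bacterial L23 at the exit of the peptide tunnel, changed by a similar amount but rested on few reads. It had 24.9, 16.4 and 15.9 normalized counts with 4-OHT, against 29.2, 34.6 and 26.0 with vehicle (log2 fold change -0.64 ± 0.24, limma adjusted p = 0.0341). Its call was lost when any of 4 libraries was left out, with a limma adjusted p of 0.0751 without vehicle replicate A, 0.129 without vehicle replicate B, 0.101 without 4-OHT replicate B and 0.0932 without 4-OHT replicate C. It was also lost with DESeq2 (adjusted p = 0.180).

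Several proteins with known functional sites in the large subunit were lower. Mrpl12, in the stalk that recruits translation factors and the counterpart of the bacterial stalk protein L7/L12 (ENSMUSG00000039640.7, chromosome 11, 120484613 to 120489065), had 645, 587 and 647 normalized counts with 4-OHT, against 838, 892 and 851 with vehicle. The 4-OHT mean was 72.8% of the vehicle mean (log2 fold change -0.46 ± 0.06, limma adjusted p = 4.05e-05). Mrpl11 and Mrpl10, which form the base of the stalk, changed by -0.43 ± 0.08 and -0.24 ± 0.06, both called. Mrpl45, which holds the ribosome to the inner membrane, changed by -0.24 ± 0.07, and Mrpl58, a peptidyl-tRNA hydrolase that also rescues stalled ribosomes, by -0.27 ± 0.09. Mrpl58 was called by limma (adjusted p = 0.0173) but missed the threshold in the authors' deposited DESeq2 table (adjusted p = 0.0936).

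Among small subunit proteins, Mrps35, found only in mitochondria (ENSMUSG00000040112.9, chromosome 6, 147042764 to 147073991), had 230, 212 and 223 normalized counts with 4-OHT, against 366, 394 and 427 with vehicle. The 4-OHT libraries were close together and the mean was 56.0% of that with vehicle (log2 fold change -0.83 ± 0.08, limma adjusted p = 3.87e-06). Mrps27, a pentatricopeptide repeat protein that binds RNA, had 263, 273 and 244 normalized counts with 4-OHT, against 441, 461 and 409 with vehicle, a change of -0.75 ± 0.08. Mrps28 had 125, 119 and 121 normalized counts with 4-OHT, against 195, 196 and 216 with vehicle, a change of -0.73 ± 0.09. Mrps6, the counterpart of bacterial S6, had 584, 555 and 547 normalized counts with 4-OHT, against 897, 882 and 776 with vehicle. It changed by -0.60 ± 0.07, and it shares exon bases on the same strand with Slc5a3 and Gm49711, so part of its reads may belong to those genes. Mrps12, the decoding centre protein, was scarcer, with 66.8, 76.5 and 70.3 normalized counts with 4-OHT, against 102, 96.9 and 93.7 with vehicle. It changed by -0.45 ± 0.12 (limma adjusted p = 0.0068) but missed the threshold with DESeq2 (adjusted p = 0.0610).

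**Figure D3:**
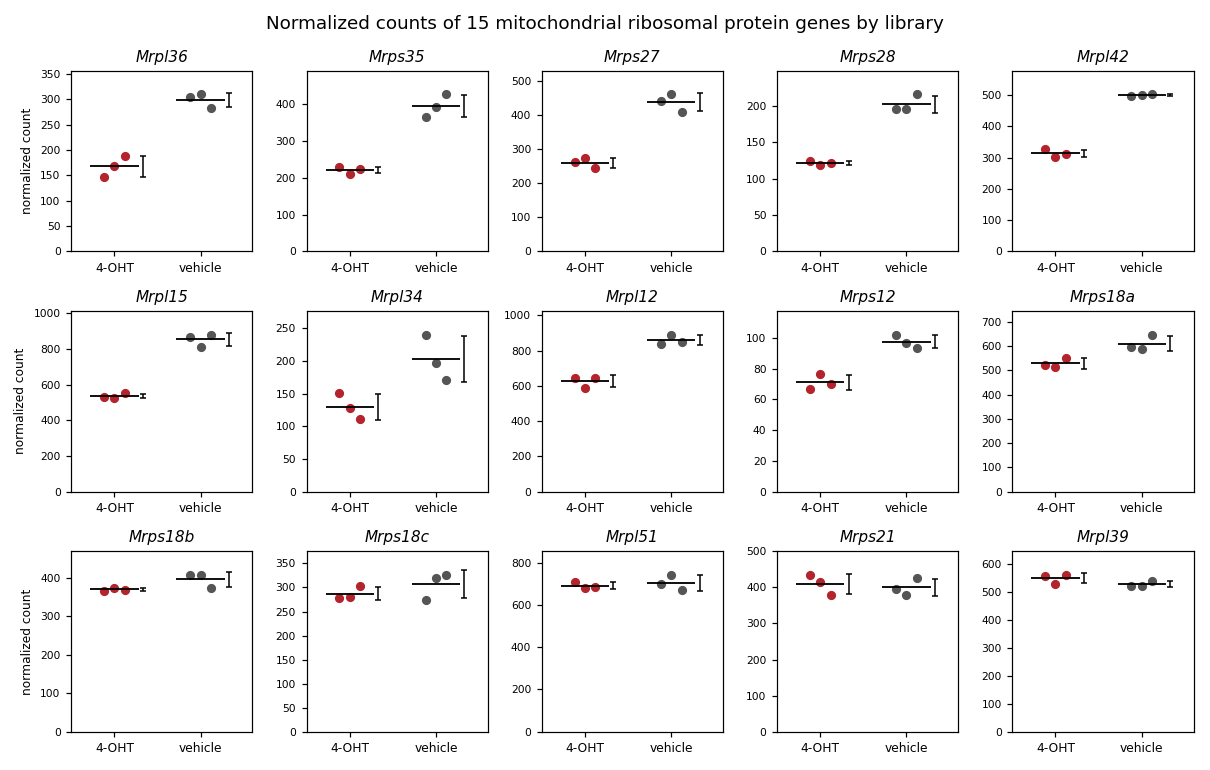
Normalized counts of 15 genes in each library, 4-OHT (red, left) and vehicle (grey, right), with the mean as a line and the SD of 3 libraries as a bar; each vertical axis starts at 0. From Mrpl36 to Mrps18a the groups do not overlap, whereas those of Mrps18b, Mrps18c, Mrpl51, Mrps21 and Mrpl39 do.

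Of the 3 paralogues that are homologous to bacterial S18, 1 was called lower. Mrps18a, which sits in the large subunit, had 520, 512 and 552 normalized counts with 4-OHT, against 594, 588 and 647 with vehicle, a change of -0.21 ± 0.06 (limma adjusted p = 0.0129, but 0.0607 without vehicle replicate C and 0.0581 with DESeq2). Mrps18b had 367, 375 and 368 normalized counts with 4-OHT, against 407, 408 and 374 with vehicle. Mrps18c had 279, 280 and 303 normalized counts with 4-OHT, against 273, 320 and 327 with vehicle. In these small subunit paralogues the groups overlapped, and changes of -0.10 ± 0.07 and -0.09 ± 0.09 were not called, though both were called under total-count scaling at -0.40. The difference between the paralogues was not tested.

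The 16 genes that were not called included Mrps21, the counterpart of bacterial S21, with 435, 414 and 379 normalized counts with 4-OHT, against 395, 379 and 425 with vehicle. Mrpl39, which resembles part of a threonyl-tRNA synthetase, had 557, 531 and 563 normalized counts with 4-OHT, against 523, 524 and 542 with vehicle. In both genes the groups overlapped, and the log2 fold changes were 0.03 ± 0.08 and 0.05 ± 0.06. Mrpl51 (-0.02 ± 0.06), Mrpl54 (0.00 ± 0.07), Mrpl46 (0.01 ± 0.08) and Mrps11 (-0.04 ± 0.11) lay as close to 0. Mrpl46 and Mrps11 start within 412 bases of each other on opposite strands and share 173 exon bases. Mrps36, now regarded as a subunit of the 2-oxoglutarate dehydrogenase complex rather than of the ribosome, had 45.3, 38.2 and 30.6 normalized counts with 4-OHT, against 29.2, 45.5 and 59.1 with vehicle, too wide a spread for a call (-0.19 ± 0.25). Mrpl53 was listed at 0 in all 6 libraries and not tested. Its exons overlap those of Gm42688 on the same strand by 695 bases, and whether its reads were assigned there was not tested.

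Levels per kilobase of annotated exon spanned a wide range. By the mean over all 6 libraries, the highest were Mrps21, at 554 ± 38.6 normalized counts per kilobase with 4-OHT and 541 ± 32.0 with vehicle, and Mrpl12, at 409 ± 22.4 with 4-OHT and 562 ± 18.4 with vehicle. Mrpl24, at 456 ± 25.9 with 4-OHT and 493 ± 12 with vehicle, Mrps6, at 367 ± 12.8 with 4-OHT and 556 ± 42.8 with vehicle, and Mrpl20, at 381 ± 20.3 with 4-OHT and 439 ± 13 with vehicle, followed (SD, n = 3 each). Mrpl54 was next by that mean and, at 410 ± 7.71 with 4-OHT and 410 ± 19.9 with vehicle, was level with Mrpl12 in the 4-OHT libraries. With vehicle Mrps21, Mrpl12 and Mrps6 lay within their spread of each other, whereas with 4-OHT Mrps21 stood above all 4 others. Mrpl20 changed by -0.21 ± 0.06 and was called, while Mrpl24 changed by -0.11 ± 0.06 and was called only without 4-OHT replicate A and under total-count scaling. The lowest of the tested genes by the same mean were Mrpl23, at 3.90 ± 1.04 with 4-OHT and 6.13 ± 0.90 with vehicle, Mrpl48, at 22.4 ± 4.37 with 4-OHT and 31.0 ± 0.32 with vehicle, and Mrps36, at 29.9 ± 5.77 with 4-OHT and 35 ± 11.7 with vehicle. In the 4-OHT libraries alone Mrps35, at 25.7 ± 1.06 with 4-OHT and 45.9 ± 3.54 with vehicle, stood below Mrps36. Exon length counts all annotated exons of a gene, so long alternative forms lower the value.

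Mrpl48 had 211, 196 and 143 normalized counts with 4-OHT, against 255, 250 and 252 with vehicle, a change of -0.48 ± 0.13 (limma adjusted p = 0.00639). Its 4-OHT replicate C stood apart from A and B, and leaving out single libraries moved the change between -0.59 and -0.31. The processed pseudogene Mrpl48-ps had 48.2 normalized counts with 4-OHT and 53.6 with vehicle on average and was not called. How reads that fit both were divided is not stated, so the share of each is uncertain. Mrpl48 also shares 708 exon bases with Rab6a on the opposite strand. Rab6a averaged 2043 normalized counts with 4-OHT and 1681 with vehicle and was called higher. The part of such shared reads in the values of Mrpl48 was not tested. The 4 other pseudogene rows, of Mrpl23 and Mrps36, had at most 4.37 normalized counts in any library.

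Many of these genes are transcribed head to head with another gene. For 33 of the 78, a protein-coding gene on the opposite strand started within 1000 bases, and 28 of the 31 partners that are not themselves mitochondrial ribosomal proteins were tested. Of these partners 14 were lower, 8 higher and 6 not called, where 32.5% of all tested genes were lower and 33% higher. Under total-count scaling 19 were lower and 3 higher, where the shares of all tested genes were 55.4% and 19.1%. No difference from these shares was tested. In 13 pairs both genes were lower, and in 6 the mitochondrial ribosomal protein was lower and its partner higher. Partners were named after their values were seen.

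Ptcd2, which encodes a mitochondrial pentatricopeptide repeat protein and starts 81 bases from Mrps27, averaged 469 ± 26.7 normalized counts with 4-OHT and 729 ± 30.4 with vehicle, a change of -0.63 ± 0.06 close to that of Mrps27. Zfp189, a zinc finger gene that starts 83 bases from Mrpl50, averaged 142 ± 21 normalized counts with 4-OHT and 84.8 ± 4.72 with vehicle. It rose by 0.73 ± 0.13, whereas Mrpl50 fell to 390 ± 13.7 with 4-OHT, against 590 ± 31.1 with vehicle (-0.59 ± 0.07). Both start sites lie within the Mrpl50 sequence printed above. Ndufs6, a subunit of respiratory complex I that starts 29 bases from Mrpl36, changed by -0.26 ± 0.07 beside -0.83 for Mrpl36. Partners that also serve mitochondria included Ndufb5 beside Mrpl47 at -0.58, Twnk, the mitochondrial DNA helicase, beside Mrpl43 at -0.51, and Sars2, the mitochondrial seryl-tRNA synthetase, beside Mrps12 at -0.67, all called. The other partners that rose included Ppp1r10 beside Mrps18b, at 0.63 ± 0.05, and Mitd1 beside Mrpl30, at 0.64 ± 0.09. The exons of Mrpl47 and Ndufb5 overlap by 616 bases and those of Mrpl43 and Twnk by 507, so their reads may be shared.

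**Figure D4:**
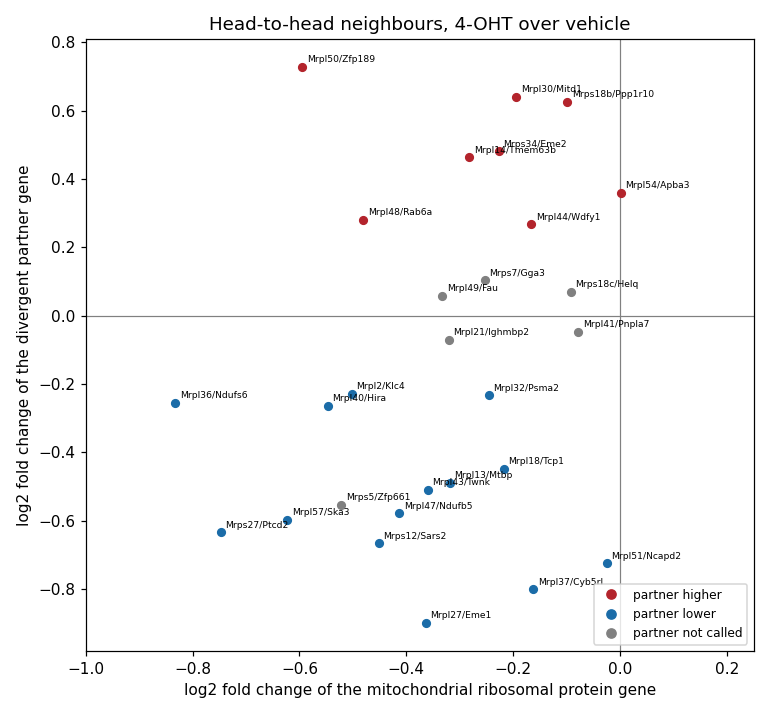
Log2 fold change of 4-OHT over vehicle of each mitochondrial ribosomal protein gene (horizontal) against that of the gene on the opposite strand whose start lies within 1000 bases (vertical), for 28 pairs; colours give the call of the partner. Partners spread from -0.90 (Eme1) to 0.73 (Zfp189), while the mitochondrial ribosomal proteins lie between -0.83 and 0.00.

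The fall was also seen in genes whose exons overlap no other gene. Of the 78 genes, 33 share exon bases with another annotated gene, 8 of them on the same strand, and the strand setting of the counting is not given. Among the 45 tested genes without such overlap, 36 were lower and 0 higher by limma, with a median log2 fold change of -0.36. Of all tested genes 32.5% were lower and 33% higher. The part of shared reads in the values was not tested.

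Subunits of the mitochondrial ribosome that have other names were called lower in 4 of 5 cases, and all 5 log2 fold changes lay below 0. Of all tested genes 32.5% were called lower. Ptcd3, a pentatricopeptide repeat protein of the small subunit, averaged 590 ± 19.3 normalized counts with 4-OHT and 858 ± 42.0 with vehicle, a change of -0.54 ± 0.06. Chchd1 changed by -0.54 ± 0.07, Gadd45gip1 by -0.38 ± 0.08 and Aurkaip1 by -0.27 ± 0.08, all called. Dap3, a GTP-binding protein of the small subunit, averaged 894 ± 22.1 normalized counts with 4-OHT and 947 ± 3.37 with vehicle and was not called (-0.08 ± 0.05), although its groups did not overlap.

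Other genes of mitochondrial translation were lower or not called, with 1 exception. Of all tested genes 32.5% were lower and 33% higher, or 55.4% and 19.1% under total-count scaling, and no list was tested against these shares. Of 28 assembly factors 13 were lower, 1 higher and 14 not called (median -0.19), or 22 lower and 0 higher under total-count scaling. Rpusd4, a pseudouridine synthase, Rcc1l and Fastkd2, all of which act on the large subunit or its RNA, changed by -0.79 ± 0.08, -0.72 ± 0.08 and -0.52 ± 0.06. Mterf3, named after its value was seen, was that exception at 0.35 ± 0.08, or 0.05 under total-count scaling. Of 14 tested translation factors and mRNA-binding proteins 9 were lower and 5 not called (median -0.33), among them the elongation factor Gfm1 at -0.42 ± 0.06, Guf1, a GTPase related to bacterial LepA, at -0.75 ± 0.06, and Lrpprc, which stabilises mitochondrial mRNAs, at -0.44 ± 0.07. Of 19 genes of mitochondrial aminoacyl-tRNA synthesis 17 were lower and 2 not called, with a median of -0.59. The synthetases Vars2 and Tars2 changed by -0.77 ± 0.09 and -0.59 ± 0.07.

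**Figure D5:**
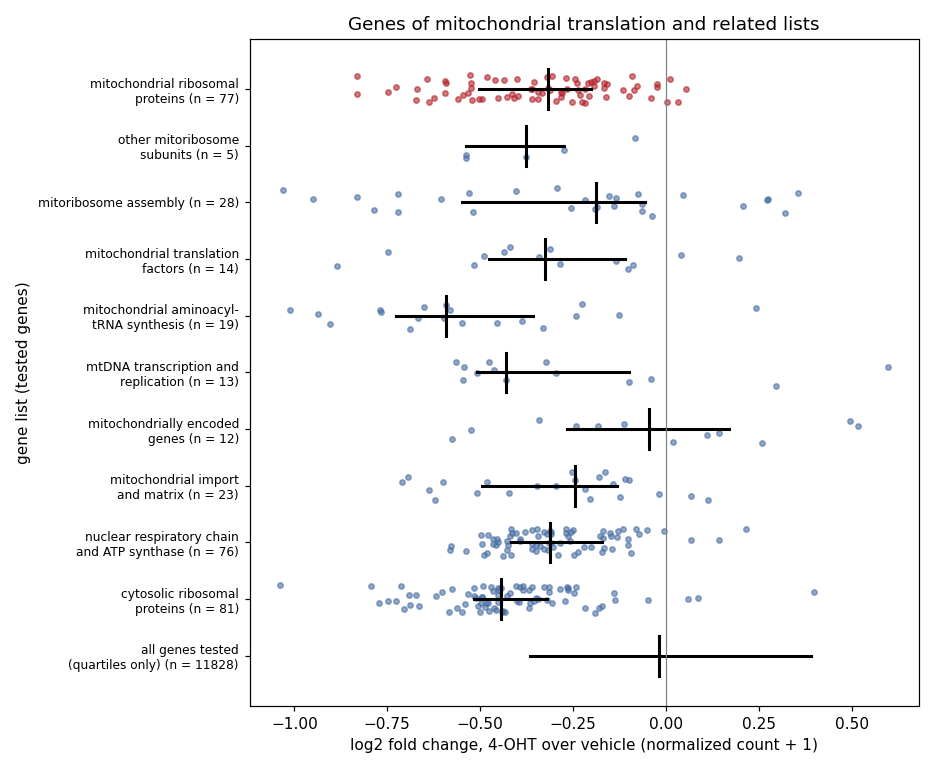
Log2 fold change of 4-OHT over vehicle for each tested gene of the mitochondrial ribosomal proteins (red, top) and of related lists (blue); black bars give the quartiles and the median, and for all genes tested these alone are drawn. Medians of the blue lists range from -0.59 (mitochondrial aminoacyl-tRNA synthesis) to -0.05 (mitochondrially encoded genes), beside -0.32 for the mitochondrial ribosomal proteins and -0.02 for all genes tested.

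Transcription and replication of mitochondrial DNA gave 8 lower, 2 higher and 3 not called of 13 (median -0.43). Among all tested genes 32.5% were lower and 33% higher, or 55.4% and 19.1% under total-count scaling. The RNA polymerase Polrmt changed by -0.43 ± 0.09 and Twnk by -0.51 ± 0.08, while the subunits of the DNA polymerase, Polg and Polg2, named after their values were seen, changed by 0.30 ± 0.07 and 0.60 ± 0.16, or -0.01 and 0.30 under total-count scaling, where neither was called and the list gave 9 lower and 0 higher. The ribosomal RNAs that these proteins bind went the other way under the deposited size factors. The small subunit RNA, mt-Rnr1, had 51087, 57719 and 52846 normalized counts with 4-OHT, against 29660, 47970 and 37458 with vehicle. The large subunit RNA, mt-Rnr2, had 126724, 134996 and 131481 normalized counts with 4-OHT, against 77930, 110264 and 93582 with vehicle. The groups did not overlap, but vehicle libraries spread widely, and the changes of 0.52 ± 0.15 and 0.49 ± 0.14 (limma adjusted p = 0.00909 and 0.00994) were not called under total-count scaling, where they were 0.21 and 0.19. Libraries were made with an mRNA kit, so the level of these RNAs also depends on how they were captured. Of 12 tested mitochondrially encoded genes 2 were higher, 1 lower (mt-Nd6, at -0.34 ± 0.09) and 9 not called. Shares of all tested genes were 33% higher and 32.5% lower. With total-count scaling 7 of the 12 were lower and 0 higher, where the shares of all tested genes were 55.4% and 19.1%. Whether the 12 genes differed from these shares was not tested. Among all 37 mitochondrially encoded genes, 14 were listed at 0.

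Nuclear genes of the respiratory chain and ATP synthase, some of whose core subunits the mitochondrial ribosome makes, were lower in 56 of 76 tested cases and not called in 20, with a median of -0.31. Ndufb5 and Sdhd changed by -0.58 ± 0.06 and -0.43 ± 0.05. Of 23 genes of mitochondrial import and matrix 17 were lower and 6 not called (median -0.24), with the prohibitin Phb2 at -0.70 ± 0.05, the chaperonin Hspd1 at -0.62 ± 0.05 and the outer membrane channel Vdac1 at -0.51 ± 0.05. The proteins of the cytosolic ribosome were lower in 66 of 81 tested genes and not called in 15, with a median of -0.44. Rpl22, Rps21 and Rps4x changed by -0.58 ± 0.05, -0.66 ± 0.06 and -0.53 ± 0.05. The share of mitochondrial ribosomal proteins called lower, 79.2%, stood beside 73.7% of the respiratory chain list and 81.5% of the cytosolic ribosomal proteins. It was 73.9% of the import and matrix list and 32.5% of all tested genes. No difference between these lists, or from all tested genes, was tested.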

How the data were processed

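Per the submitters' processing notes, bcl2fastq 2.20, Trimmomatic 0.35, STAR 2.5.1b, RSEM and DESeq2 1.18.1 were used with builds GRCm38 and mm10; annotation, strand setting and read assignment are not given in the sources used here. The deposited signal per gene is a count divided by a library size factor: within each library, all values proved to be integer multiples of a common unit (tolerance 1e-06), from which reads were recovered. That unit is near 1 in vehicle replicate B, so edgeR was also run without this library. The deposited log2 fold change and p-value columns are the authors' and serve as an alternative.

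Limma 3.58.1 (R 4.3.3, mean-variance trend, group as the only term) was run on log2(normalized count + 1) for genes passing edgeR 4.0.16 filterByExpr (minimum count 10), and checked on simulated data. Far fewer genes changed in the simulated data than were called here, so that check does not show that these calls hold. Adjusted p-values are Benjamini-Hochberg over all 11828 genes, with calls under 0.05. Replicates may be technical, since nothing says they were separate cultures. Alternatives are in the closing section, with DESeq2 1.42.0 and edgeR on whole reads. Exon lengths and neighbours come from GENCODE M21, in which 66 of the 78 genes lie at the deposited coordinates.

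Members and lists were chosen with earlier results of these data known. Named genes were the 10 lowest called genes whose groups did not overlap (mean 20 or more), none being higher, the 5 highest and 3 lowest per kilobase, Mrpl12, Mrps12, the Mrps18 paralogues, untested genes, and up to 3 per list by p, some of which are not reported here. Mrpl10, Mrpl11, Mrpl39, Mrpl45, Mrpl46, Mrpl50, Mrpl51, Mrpl54, Mrpl58 and Mrps11 were named after their values were seen.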

Additional observations from a re-analysis of the deposited data

How the results depend on the processing

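The count of mitochondrial ribosomal proteins called lower, 61, lay between 46 (DESeq2 and the authors' deposited table) and 76 (total-count scaling) over 18 alternatives, and between 53 and 61 when single libraries were left out; 0 were called higher in all of them. Their median moved to -0.62 under total-count scaling, beside -0.34 to -0.30 without single libraries. All genes called higher and lower numbered 2259 and 6549 under total-count scaling, against 3902 and 3848. Mrps21, never called except under total-count scaling, changed sign there (-0.27), when single libraries were left out (-0.012 to 0.088; -0.0043 without vehicle replicate B) and in edgeR without that library (-0.00092), and so did Mrps36 when single libraries were left out (-0.45 to 0.041, above 0 only without vehicle replicate C). Mrpl23 was not tested at a mean of 50 or more and lost its call with no filter on low values (adjusted p = 0.0829). The cause was not tested. With a replicate block for the letter, 60 were lower, and no named gene changed its call. Same-letter deviations correlated at 0.109 (A), 0.0363 (B) and 0.12 (C), and every library correlated best with its own letter, a hint from the data and not the design. Mrpl23 and Mrps36 had few reads, which limits their precision; whether depth accounts for their spread was not tested.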
